A study of Mus musculus with 4 samples.

Results

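The genes described here encode the calcium channels of the heart muscle cell surface and the proteins that store, release and recapture calcium at the sarcoplasmic reticulum, the internal calcium store of muscle. A list of 46 genes was set and every probe set of the array that carries 1 of these symbols alone was taken. Of the 46 genes, 44 had at least 1 such probe set, 114 in all, among 18193 genes measured on the array, and *Itpr1* and *Cacnb3* were not analysed here. The samples were hearts of 10-week-old mice of a mixed 129/Ola-C57BL/6 background that had received no treatment, 2 of genotype Jun f/f and 2 of genotype Jun delta mu, with 1 array per heart. All 4 mice carried floxed alleles of *Jun*, which encodes the AP-1 transcription factor c-Jun. Jun delta mu mice carried in addition a Cre recombinase driven by the muscle creatine kinase promoter (MCK-Cre), which deletes the floxed gene in striated muscle, so that fibroblasts, vessels and other cells of the heart keep it and skeletal muscle of the same animals loses it too. Control and mutant mice were littermates according to the methods, and the controls were without Cre, so that the Cre transgene itself and the loss of *Jun* cannot be told apart. Titles and methods give whole hearts, while the deposited growth notes describe digested ventricles placed in culture, and this was not resolved.

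In a heartbeat, depolarization opens L-type calcium channels of the surface membrane, and the calcium that enters opens ryanodine receptors of the sarcoplasmic reticulum, which release far more. The muscle relaxes when the pump SERCA, held back by phospholamban or sarcolipin, returns calcium to the reticulum, where calsequestrin binds it, and when the sodium-calcium exchanger carries the remainder out of the cell. Many of these proteins exist as a cardiac and a skeletal isoform from separate genes, and in skeletal muscle the L-type channel opens the ryanodine receptor by contact and not through entering calcium.

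The values are log2 signals from Affymetrix Mouse Genome 430 2.0 arrays, on which 1 unit is a doubling. *Jun*, the deleted gene, read 7.78 and 8.15 on the Jun f/f arrays and 6.58 and 6.86 on the Jun delta mu arrays with the dimmer of its 2 probe sets, and the brighter one differed by -1.57. Of 10 markers of working heart muscle 0 passed the threshold, and their mean log2 signal was 13.4 to 13.5 on every array. Among them *Actc1*, *Myh6*, *Myl2*, *Myl3* and *Tnnt2* read 14.67 to 14.84 and *Tnni3* read 14.3. The highest signals of the arrays were 14.86 to 14.87, and near that top a change may go unseen. Array medians lay between 5.45 and 5.47. Jun f/f replicate 1 stood somewhat apart, with 104 probe sets more than 2-fold away from the average of the rest, where each other array had 24 to 33. A probe set was taken as past the threshold when the genotypes differed by more than 1.3-fold with an unadjusted p under 0.05 in limma, the fold and p that the study's methods use. Differences are given as Jun delta mu minus Jun f/f, in log2 units.

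Most calcium-handling genes did not pass the threshold. Of 44 genes, each taken by its brightest probe set, *Cacna1h* and *Slc8a1* were higher in Jun delta mu hearts, *Casq1* was lower, and 41 did not pass the threshold, where 1.45% of all 18193 genes passed, 0.665% as higher and 0.786% as lower. The difference was within 0.2 of zero for 36 of the 44 genes, as for 15606 of all 18193, and its median was -0.00, against 0.01 over all genes. By single probe sets 6 of 114 passed, which is 5.26% against a background of 1.53% of 45037 probe sets. The 3 that were higher belong to *Cacna1h*, *Slc8a1* and *Cacna1a* (background 0.568%), and the 3 that were lower to *Casq1*, *Cacnb1* and *Asph* (background 0.959%). The members were chosen with earlier results of these data known, which the comparison of shares does not allow for. The groups did not overlap for 41 of the 114 probe sets, 20 higher and 21 lower, a share of 36.0% beside 33.9% over the array. An unadjusted p under 0.05 was reached by 10 of the 114 member probe sets, where 5.16% of the array did so, and after Benjamini-Hochberg adjustment over all 45037 probe sets 0 members passed in limma, with a smallest adjusted p of 0.896. With the methods' t-test 4 member probe sets were past the same fold and p, those of *Casq1*, *Cacna1h*, *Cacnb1* and *Cacna1a*, against 0.444% of the array, and 0 after adjustment. Leaving out Jun f/f replicate 2 gave a limma count of 11, or 9.65% of members where 7.66% of the array passed, and leaving out Jun delta mu replicate 1 gave 10, or 8.77% where 1.80% passed, in fits that assume the lone array of a genotype to vary like the other group.

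**Figure D1:**
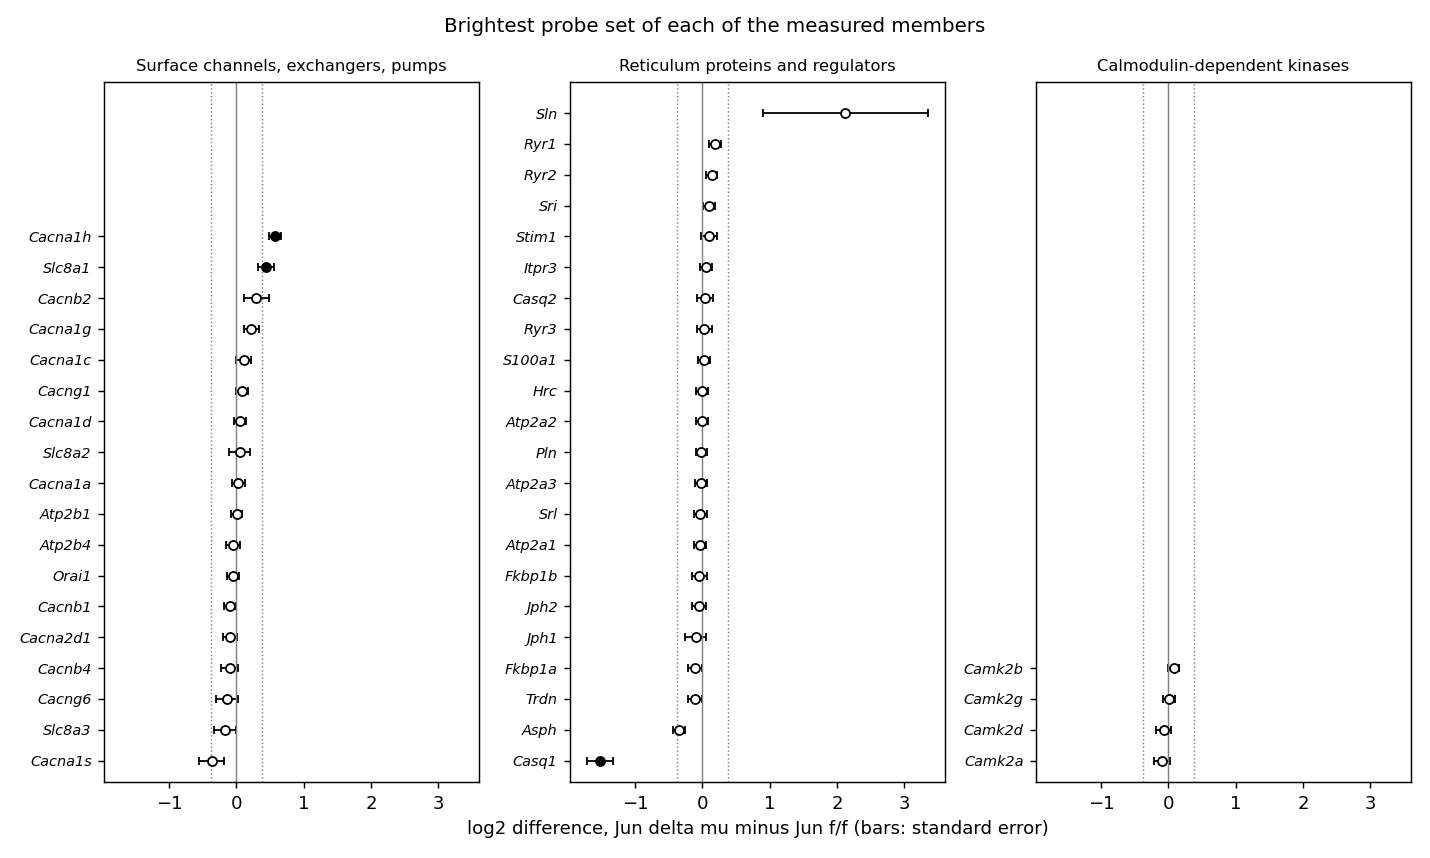
Difference in log2 signal, Jun delta mu minus Jun f/f (n = 2 arrays each), of the brightest probe set of each of the 44 genes, grouped by role, with standard errors from limma as bars, dotted lines at 1.3-fold and filled points past the threshold. *Casq1* lies at -1.52, *Cacna1h* at 0.58 and *Slc8a1* at 0.44. *Sln*, at 2.12, has the widest bar, 1.22 to each side, and 36 genes lie within 0.2 of zero.

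Calsequestrin, the calcium-binding protein of the reticulum lumen, has a skeletal isoform encoded by *Casq1* and a cardiac one encoded by *Casq2*. The *Casq1* signal was 6.89 and 7.39 on the Jun f/f arrays and 5.49 and 5.75 on the Jun delta mu arrays. Both mutant hearts thus lay below both controls, by more than the replicates of either genotype differed. The difference of -1.52 (SE 0.19, 95% interval -1.99 to -1.04) is a 2.87-fold lower signal (limma, unadjusted p = 0.000323, adjusted p = 0.896). It stayed past the threshold whichever array was left out, at -1.77 to -1.27. *Casq2* showed no such difference with its only probe set, which is of a kind that can also match other transcripts. Its signal was 12.65 and 12.85 against 12.89 and 12.70, so that the groups overlapped, and the difference was 0.04 with an interval from -0.26 to 0.34. In bulk tissue such as whole heart, fewer cells of a type and less RNA per cell cannot be told apart. Beside *Casq1*, of 20 genes used as markers of skeletal-type muscle, *Mybpc2* (-2.30) and *Myot* (-1.44) were lower, *Myl1* (1.04) was higher and 17 did not pass, and the mean log2 signal of the list was 5.84 and 5.87 in Jun f/f against 5.67 and 5.75 in Jun delta mu hearts. The fast skeletal myosins *Myh1*, *Myh2* and *Myh4* had log2 signals of 3.11 to 5.15 over the 4 arrays and differences of -0.11 to 0.01. The part of these markers in the *Casq1* difference was not tested.

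The sequences before the start sites of *Casq1* and *Casq2* are shown because *Casq1* passed the threshold and its cardiac counterpart did not, and those of *Slc8a1* and *Cacnb1* because a probe set of each passed and the promoter table used holds them. They are the 250 bases before each annotated start in RefSeq, build GRCm38.p6, written 5′ to 3′ on the gene's strand, with capitals for the E-box letters CANNTG, the core bound by basic helix-loop-helix factors.
Casq1, chr1:172219896-172220145 (minus strand): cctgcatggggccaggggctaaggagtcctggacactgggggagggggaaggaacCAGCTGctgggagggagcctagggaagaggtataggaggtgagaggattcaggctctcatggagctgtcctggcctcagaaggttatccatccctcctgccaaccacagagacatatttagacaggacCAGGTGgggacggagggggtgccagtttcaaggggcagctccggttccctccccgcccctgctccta
Casq2, chr3:102086165-102086414 (plus strand): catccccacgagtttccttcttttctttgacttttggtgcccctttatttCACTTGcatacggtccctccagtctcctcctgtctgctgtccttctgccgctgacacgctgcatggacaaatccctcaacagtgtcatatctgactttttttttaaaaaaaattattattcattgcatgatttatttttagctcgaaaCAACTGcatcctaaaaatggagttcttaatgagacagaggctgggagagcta
Slc8a1, chr17:81738388-81738637 (minus strand): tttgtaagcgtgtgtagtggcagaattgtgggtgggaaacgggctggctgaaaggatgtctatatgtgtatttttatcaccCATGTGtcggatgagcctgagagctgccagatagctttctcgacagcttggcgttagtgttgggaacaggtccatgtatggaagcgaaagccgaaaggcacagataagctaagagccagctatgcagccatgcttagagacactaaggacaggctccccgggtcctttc
Cacnb1 first start, chr11:98022628-98022877 (minus strand): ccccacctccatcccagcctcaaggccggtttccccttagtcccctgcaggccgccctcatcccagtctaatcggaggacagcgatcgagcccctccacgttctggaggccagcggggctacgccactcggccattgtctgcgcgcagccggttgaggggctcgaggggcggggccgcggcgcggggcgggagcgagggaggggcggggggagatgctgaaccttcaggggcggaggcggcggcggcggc
Cacnb1 second start, chr11:98018373-98018622 (minus strand): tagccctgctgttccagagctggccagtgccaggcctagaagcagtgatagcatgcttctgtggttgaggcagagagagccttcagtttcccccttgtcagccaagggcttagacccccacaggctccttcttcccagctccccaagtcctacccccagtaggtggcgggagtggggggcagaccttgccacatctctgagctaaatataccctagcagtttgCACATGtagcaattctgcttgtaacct
*Casq1* and *Casq2* each held 2 E-boxes in this stretch, *Slc8a1* held 1, and of the *Cacnb1* starts the first held 0 and the second held 1. These letters were common: 28 of the 42 RefSeq promoters found for 32 of the listed genes held CANNTG within 250 bases before to 50 bases after the start, which is 66.7%, as did 72.3% of 32851 mouse promoters. The AP-1 site TGACTCA was in 0 of the 42 promoters and in 5.20% of all, and the wider pattern TGANTCA, with any base at its centre, in 1 of the 42 and in 7.81% of all. The CRE-like AP-1 and ATF element TGACGTCA was in 0 of the 42 and in 1.79% of all. CTA and TAG with any 4 bases between them were in 0 of the 42 and in 3.69% of all. That pattern is wider than the MEF2 site at its centre but takes in only those MEF2 sites that start with CTA and end with TAG. Forms that start with TTA or end with TAA, such as ttatttttag in the *Casq2* stretch, were not searched for. Each pattern named was searched on both strands. The promoter with TGANTCA was that of *Sri*, which encodes sorcin, a calcium-binding regulator of the ryanodine receptor, and its match is in capitals here, with its first 2 and its last 2 letters each shared with a CANNTG match.
Sri, chr5:8045920-8045948 (plus strand): tgtaacacaccTGATTCAactgatacagc
*Sri* did not pass the threshold: its signal was 8.65 and 8.75 in Jun f/f and 8.80 and 8.79 in Jun delta mu hearts, a difference of 0.10 (SE 0.09). A match of letters describes the sequence only, and holds for this window alone.

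Among the surface channels, *Cacna1h*, which encodes the pore of the Cav3.2 T-type channel, a low-voltage channel prominent in the fetal heart, was higher in mutant hearts. Its signal was 5.66 and 5.67 in Jun f/f and 6.25 and 6.23 in Jun delta mu hearts. The replicates of each genotype lay within 0.02 of each other and the groups were far apart for that spread. The difference was 0.58 (SE 0.09, 95% interval 0.36 to 0.79, 1.49-fold, limma, unadjusted p = 0.000758, adjusted p = 0.896), and 0.57 to 0.58 when any array was left out. The other *Cacna1h* probe set differed by 0.04 and did not pass. *Cacna1g*, for the related Cav3.1 pore, read 6.68 and 6.72 against 7.04 and 6.80, without overlap, and its difference of 0.22 (SE 0.11) was below the threshold.

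*Cacna1a*, for the Cav2.1 pore best known from nerve terminals, passed with 1 probe set of 4. The signal of that probe set was 3.51 and 3.51 against 3.93 and 3.90, a difference of 0.41 (SE 0.09, 1.32-fold, limma, unadjusted p = 0.00408). These values lay below the lower quartile of every array, which was 4.05 to 4.11, and the array files carry no detection call. The other *Cacna1a* probe sets differed by -0.03 to 0.05. Of 7 markers of nerve and glia 0 passed, with differences of 0.00 to 0.19.

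The L-type channel of the heart has its pore, Cav1.2, from *Cacna1c*, while *Cacna1s* encodes Cav1.1, the pore of skeletal muscle that acts as its voltage sensor. The brightest *Cacna1c* probe set read 9.78 and 9.88 in Jun f/f and 9.84 and 10.04 in Jun delta mu hearts, which overlap, with a difference of 0.11 and an interval from -0.16 to 0.38. The second *Cacna1c* probe set was higher on both mutant arrays, at 8.06 and 8.17 against 8.36 and 8.47, and its difference of 0.30 (limma, unadjusted p = 0.0237) was under 1.3-fold. *Cacna1s* read 6.36 and 5.86 in Jun f/f and 5.64 and 5.84 in Jun delta mu hearts, a difference of -0.37 (SE 0.18) that did not pass. The *Cacna1s* value turned on the controls, since it was -0.62 and past the threshold when Jun f/f replicate 2 was left out, and -0.12 when the other control was. *Cacna1d*, for the Cav1.3 pore of pacemaker tissue, differed by 0.05 and 0.11 with its 2 probe sets.

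The beta subunits sit on the inner side of these channels and bring the pore to the membrane. *Cacnb1* encodes the beta subunit of skeletal muscle and *Cacnb2* the main one of the heart. A *Cacnb1* probe set read 5.62 and 5.58 in Jun f/f and 5.08 and 5.12 in Jun delta mu hearts. Both mutant arrays lay below both control arrays, with a difference of -0.51 (SE 0.09, 1.42-fold, limma, unadjusted p = 0.00157, adjusted p = 0.896) that held at -0.53 to -0.48 when any array was left out. This probe set is of a kind that can also match other transcripts, and the other 3 *Cacnb1* probe sets did not pass, at -0.09 for the brightest, -0.00 and 0.28. *Cacnb2* read 9.61 and 9.97 against 10.29 and 9.88, so that the genotypes overlapped, and its difference of 0.30 had an interval from -0.17 to 0.76. *Cacnb4*, a further beta subunit, differed by -0.10, *Cacna2d1*, the extracellular alpha2delta subunit, by -0.10, and the gamma subunits *Cacng1* and *Cacng6* by 0.09 and -0.13, each by its brightest probe set and none past the threshold.

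Calcium leaves the cell mainly through the sodium-calcium exchanger NCX1, encoded by *Slc8a1*. Its brightest probe set read 8.79 and 8.55 in Jun f/f and 9.08 and 9.14 in Jun delta mu hearts, so that both mutants were above both controls. The difference was 0.44 (SE 0.11, 95% interval 0.16 to 0.73, 1.36-fold, limma, unadjusted p = 0.00998, adjusted p = 0.896). It did not pass with the methods' t-test, nor without Jun f/f replicate 2, at 0.32, nor without Jun delta mu replicate 2, at 0.42. The dimmest of the 4 *Slc8a1* probe sets was also higher, at 3.96 and 3.94 against 4.29 and 4.29, by 0.35 and thus under 1.3-fold, and the remaining ones differed by 0.04 and -0.01. Both Jun f/f values of the dimmest one lay below the lower quartile of their arrays, 4.05 and 4.10. The other exchangers *Slc8a2* and *Slc8a3* differed by 0.05 and -0.17, and the surface calcium pumps *Atp2b1* and *Atp2b4* by 0.00 and -0.05. *Orai1* and *Stim1*, the surface channel and the reticulum sensor of store-operated calcium entry, differed by -0.05 and 0.09, and 0 of their probe sets passed.

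**Figure D2:**
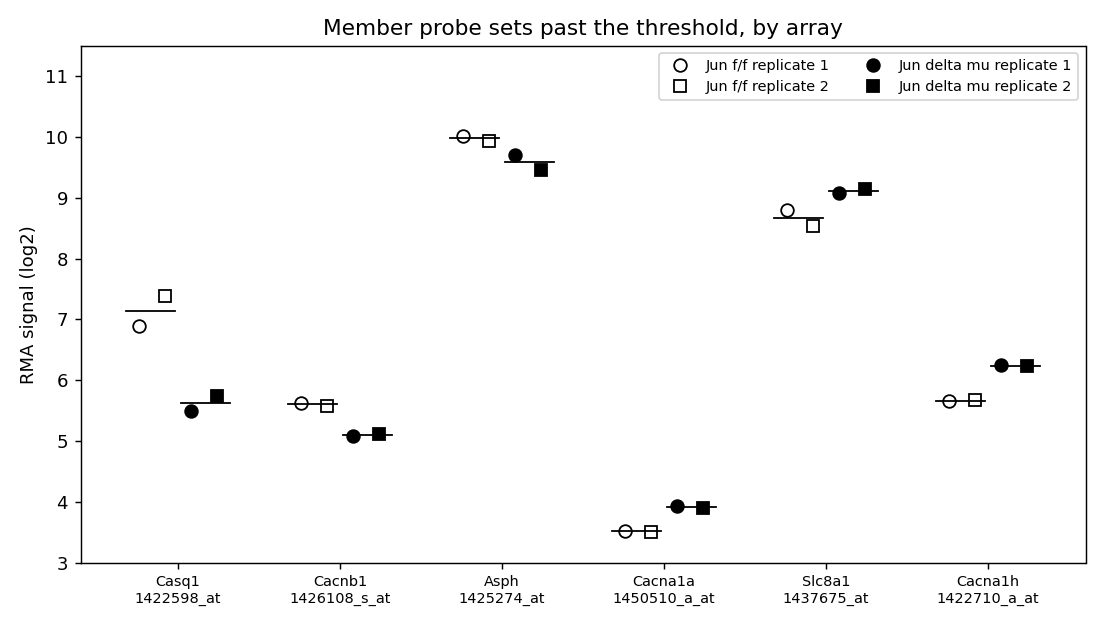
Log2 signal on each of the 4 arrays for the 6 probe sets past 1.3-fold with an unadjusted p under 0.05 in limma, with open symbols for Jun f/f hearts, filled symbols for Jun delta mu hearts and a line at the mean of each genotype (n = 2). For each gene both Jun delta mu points lie on the same side of both Jun f/f points, lower for *Casq1*, *Cacnb1* and *Asph* and higher for *Cacna1h*, *Slc8a1* and *Cacna1a*.

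The ryanodine receptor is the release channel of the reticulum, with *Ryr2* as its cardiac and *Ryr1* as its skeletal form. *Ryr2* read 12.77 and 12.82 in Jun f/f and 12.95 and 12.92 in Jun delta mu hearts, a difference of 0.14 (SE 0.09, 95% interval -0.08 to 0.35) without overlap of the groups, and its other probe set differed by 0.02. *Ryr1* read 4.43 and 4.42 against 4.57 and 4.66, also higher on both mutant arrays, by 0.19 (SE 0.09, 95% interval -0.03 to 0.42). Neither passed the threshold. *Ryr3*, the form found in brain and developing muscle, differed by 0.03 with its brightest probe set, and *Itpr3*, an inositol trisphosphate receptor that releases calcium from the same kind of store, by 0.05. The FK506-binding proteins that bind the release channels differed by -0.04 for *Fkbp1b* and by -0.10 to 0.07 over the 5 probe sets of *Fkbp1a*.

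Junctin and triadin anchor calsequestrin to the ryanodine receptor, and junctin is 1 product of *Asph*, a gene that also encodes the enzyme aspartate beta-hydroxylase and junctate. A probe set of *Asph* read 10.02 and 9.93 in Jun f/f and 9.70 and 9.47 in Jun delta mu hearts, lower on both mutant arrays, with a difference of -0.39 (SE 0.11, 1.31-fold, limma, unadjusted p = 0.0157). This call was lost when Jun f/f replicate 1 was left out, at -0.35, or Jun delta mu replicate 2, at -0.28, and also with the methods' t-test. The brightest *Asph* probe set was lower too, at 10.10 and 10.05 against 9.77 and 9.68, but its difference of -0.35 (limma, unadjusted p = 0.0104) was under 1.3-fold. Of the 6 *Asph* probe sets 5 lay below zero, and the annotation used here does not say which product each one measures. *Trdn*, for triadin, read 12.40 and 12.26 against 12.29 and 12.14, a difference of -0.11, and its 6 probe sets ranged from -0.26 to 0.12 with none past the threshold. *Hrc*, a histidine-rich calcium-binding protein of the same complex, differed by -0.00, *Srl*, for sarcalumenin, by -0.03, and *S100a1*, a calcium sensor that acts on the release channel and the pump, by 0.03.

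SERCA2, the calcium pump of the cardiac reticulum, comes from *Atp2a2*. Its brightest probe set read 14.73 to 14.74 over the 4 arrays, with a difference of -0.01 and an interval from -0.22 to 0.21. That signal was close to the highest on the arrays, 14.86 to 14.87, where a change may go unseen. A less bright probe set, at 12.74 to 12.82, differed by -0.02, and the 3 dimmest by -0.26, -0.21 and -0.33. All 6 *Atp2a2* probe sets had differences below zero, of -0.33 to -0.01, and 0 passed the threshold. Those at -0.21 and -0.33 turned on a single mutant heart. They differed by 0.07 and -0.03 without Jun delta mu replicate 1, and by -0.49 and -0.63 without Jun delta mu replicate 2. The *Atp2a2* probe set with the lowest p read 10.51 and 10.44 in Jun f/f and 10.12 and 10.31 in Jun delta mu hearts, a difference of -0.26 (limma, unadjusted p = 0.0480) that was under 1.3-fold. *Atp2a1*, for the fast skeletal pump SERCA1, read 6.36 and 6.47 against 6.39 and 6.38, a difference of -0.03, and *Atp2a3*, for the pump of non-muscle cells, differed by -0.02 with its brightest probe set.

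**Figure D3:**
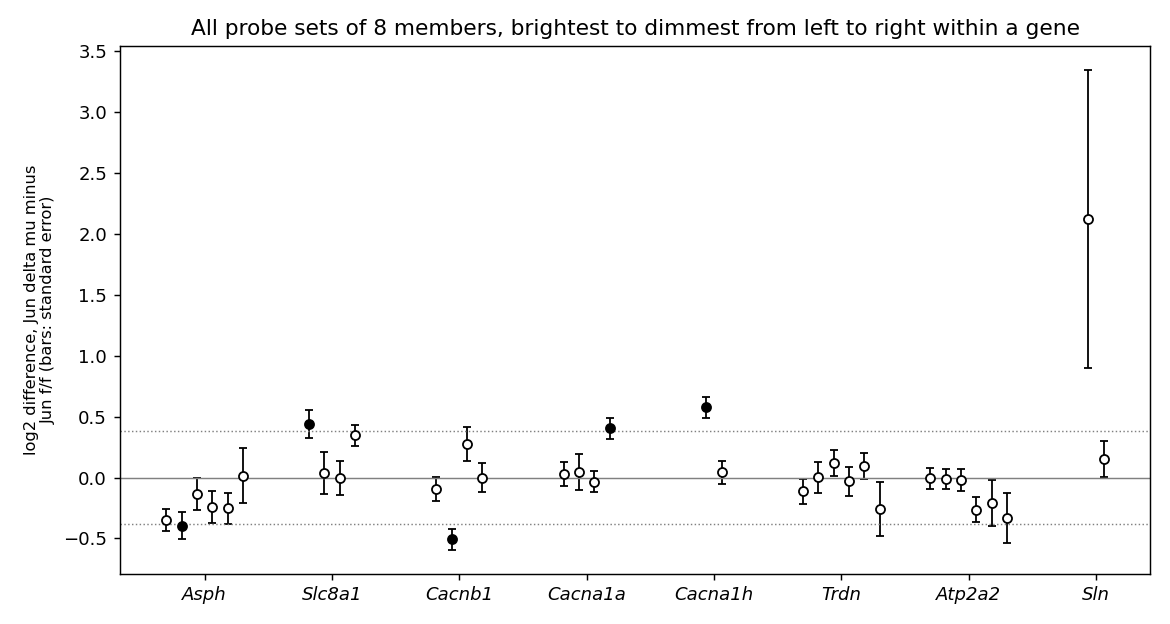
Difference in log2 signal, Jun delta mu minus Jun f/f, of every probe set of 8 genes, from the brightest on the left to the dimmest, with standard errors from limma as bars, dotted lines at 1.3-fold and filled points past the threshold. The 6 *Atp2a2* probe sets lie between -0.33 and -0.01 and 5 of the 6 *Asph* probe sets lie below zero, whereas the *Cacnb1* probe sets spread from -0.51 to 0.28.

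Phospholamban, from *Pln*, slows SERCA until it is phosphorylated. *Pln* read 14.56 and 14.55 in Jun f/f and 14.53 and 14.55 in Jun delta mu hearts, a difference of -0.02 with an interval from -0.23 to 0.20, and its other probe sets differed by 0.03 and -0.03. All 3 read 14.37 to 14.56, near the top of the array's range, where a change may go unseen. Sarcolipin, from *Sln*, does the same in atria and in some skeletal muscles. *Sln* read 3.81 and 4.15 in Jun f/f and 4.10 and 8.11 in Jun delta mu hearts, so that a single mutant heart stood far above the other 3. The difference of 2.12 (SE 1.22, 95% interval -0.94 to 5.19) did not pass the threshold, was 0.12 without Jun delta mu replicate 2, and was 4.13 and past the threshold without Jun delta mu replicate 1. The dimmer *Sln* probe set differed by 0.15. On the array with the high *Sln* value the atrial myosin light chains were high too, with 9.11 for *Myl7* and 9.02 for *Myl4*, where the other 3 arrays read 4.88 to 5.51 and 5.69 to 6.03. Of the other atrial markers, *Nppa* read 12.79 there against 11.88 to 12.40 and *Bmp10* 6.64 against 6.50 to 6.53, while *Stard10* at 8.63 lay below the other mutant heart, *Nr2f2* at 7.08 below both controls, and *Gpr22* at 9.46 below all other arrays. Of 7 measured atrial markers 0 passed the threshold, and their mean log2 signal was 7.83 and 7.98 in Jun f/f and 8.02 and 8.96 in Jun delta mu hearts. The part of atrial tissue in the *Sln* value was not tested.

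**Figure D4:**
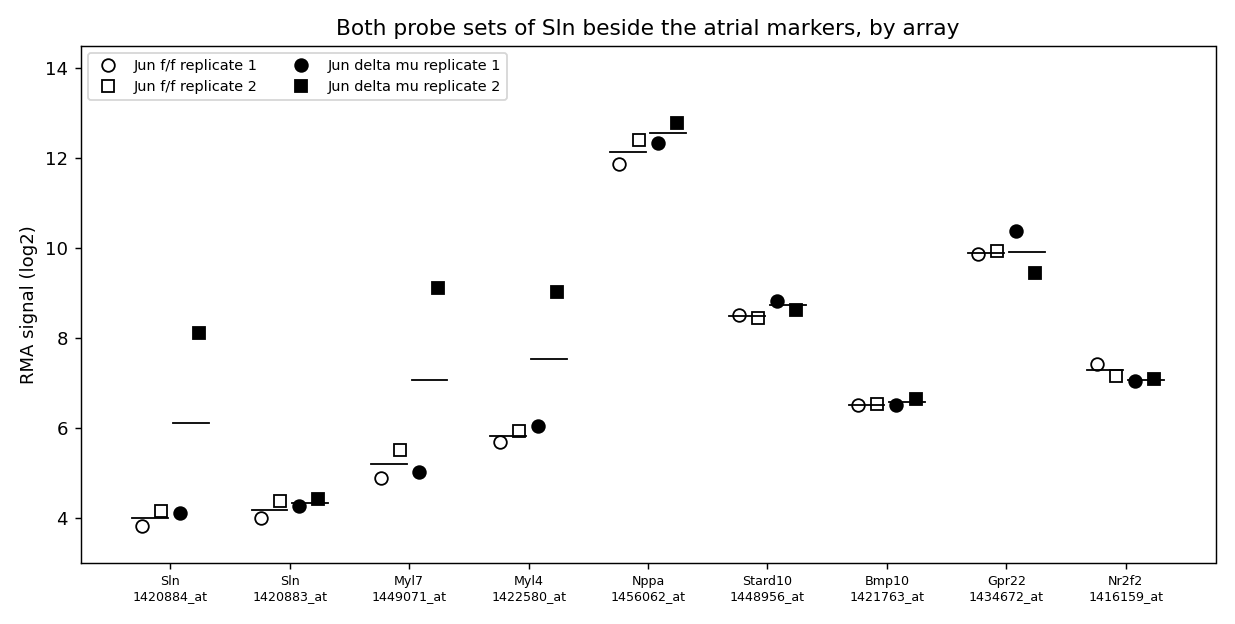
Log2 signal of both *Sln* probe sets and of 7 atrial marker genes on each of the 4 arrays, with a line at the mean of each genotype (n = 2). The *Sln* probe set with the higher mean reads 3.81 to 4.15 on 3 arrays and 8.11 on that of Jun delta mu replicate 2 (filled square). On that array the other *Sln* probe set reads 4.41, and *Myl7* and *Myl4* stand at 9.11 and 9.02.

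Junctophilins hold the surface membrane close to the reticulum, with *Jph2* as the cardiac and *Jph1* as the skeletal form. *Jph2* read 11.38 and 11.48 against 11.29 and 11.47, a difference of -0.05, and *Jph1* read 8.07 and 7.63 against 7.80 and 7.69, a difference of -0.10 that was smaller than the gap between the Jun f/f arrays. The calmodulin-dependent kinases, which phosphorylate the L-type channel, the release channel and phospholamban, did not pass with any of 16 probe sets. By brightest probe set *Camk2d*, the main form in heart, differed by -0.07, *Camk2g* by 0.01, *Camk2a* by -0.09 and *Camk2b* by 0.08.

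By place in the cell, 4 of 43 probe sets of surface channels, exchangers and pumps passed, 3 higher and 1 lower, and 2 of 55 probe sets of reticulum proteins and their regulators, both lower. That is 9.30% and 3.64% against the array's 1.53%. By brightest probe set 2 of the 18 surface genes and 1 of the 22 reticulum genes passed, beside 1.45% of all genes. The median difference was 0.02 over the 18 surface genes and -0.01 over the 22 reticulum genes, and 13 and 19 of them lay within 0.2 of zero. Whether the places differ was not tested, and the lists were chosen with earlier results of these data known.

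By isoform, 1 of 30 probe sets of the 10 cardiac forms passed (3.33%), that of *Slc8a1*, as higher, where 0.568% of the array did so. Of 16 probe sets of the 9 skeletal forms 2 passed (12.5%), those of *Casq1* and *Cacnb1*, both lower, where 0.959% of the array did so. The cardiac and skeletal lists were also chosen with earlier results of these data known. By brightest probe set 1 of the 10 cardiac genes, *Slc8a1*, and 1 of the 9 skeletal genes, *Casq1*, passed, beside 1.45% of all genes. The median difference was 0.02 over the cardiac and -0.10 over the skeletal genes, with 7 of the 9 skeletal genes below zero, as were 8688 of all 18193 genes. For 6 pairs of genes the change of the skeletal form was set against that of its cardiac partner on each array by subtracting their log2 signals. The *Casq1* pair differed by -1.56 and the *Cacna1s* pair by -0.47, both without overlap of the genotypes (exact permutation test, two-sided, p = 0.333 each, the smallest that 2 against 2 arrays allow, and 1 after adjustment over the 6 pairs). The remaining pairs overlapped, with -0.39 for *Cacnb1* against *Cacnb2*, 0.05 for *Ryr1* against *Ryr2*, -0.05 for *Jph1* against *Jph2* and -0.03 for *Atp2a1* against *Atp2a2*, where the *Atp2a2* probe set lies near the top of the array's range. The *Cacna1s* value was between -0.77 and -0.18 when arrays were left out in turn, and the *Cacnb1* value between -0.63 and -0.15.

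**Figure D5:**
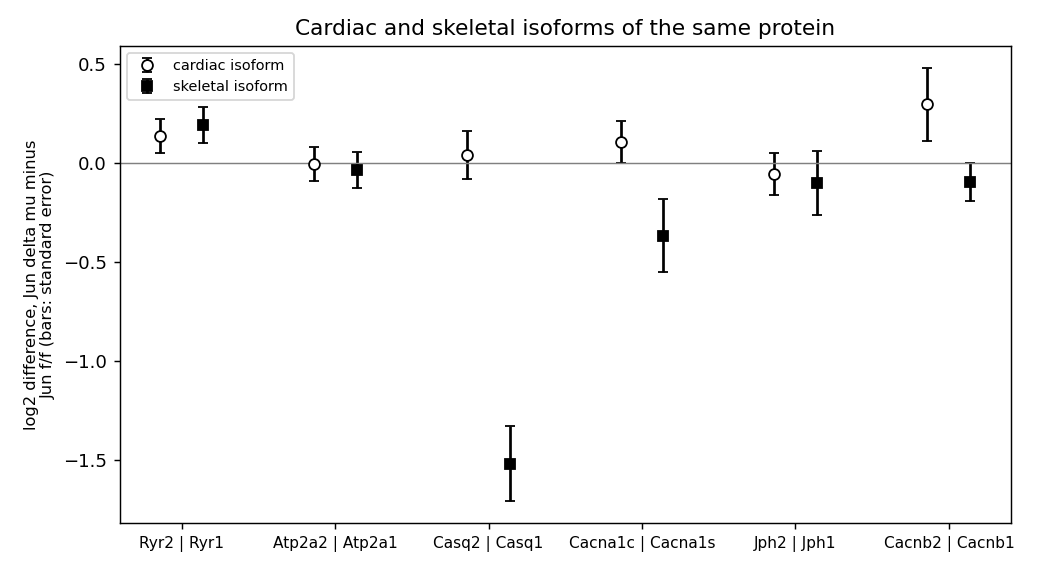
Difference in log2 signal, Jun delta mu minus Jun f/f (n = 2 arrays each), of the skeletal and the cardiac isoform of 6 proteins, each by its brightest probe set, with standard errors from limma as bars. The isoforms lie far apart for calsequestrin, at -1.52 and 0.04, and the reticulum pump reads -0.03 and -0.01, the latter from a probe set near the top of the array's range.

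Other genes of calcium signalling were read from a second list, of which 66 of 74 genes were measured with 170 probe sets. By brightest probe set 0 of the 66 genes passed, and their median difference was 0.01. By single probe sets 3 of 170 passed, 1.76% beside the array's 1.53%. *Itpr2*, the main inositol trisphosphate receptor of heart muscle cells, read 6.53 and 6.49 in Jun f/f and 6.92 and 7.08 in Jun delta mu hearts with 1 of its 6 probe sets, a difference of 0.49 (SE 0.10) that also passed with the methods' t-test, while its brightest probe set differed by 0.25. Both of these *Itpr2* probe sets are of the kind that can also match other transcripts. *Homer1*, a scaffold protein of release channels, was 0.47 higher with 1 of 6 probe sets, a call lost without Jun f/f replicate 1, at 0.32, or without Jun delta mu replicate 1, at 0.27. *Pde4d*, a phosphodiesterase that acts near the release channel, was lower with the dimmer of its 2 probe sets, at 4.57 and 3.83 against 3.14 and 3.10, a difference of -1.08 that was -0.71 when Jun f/f replicate 1 was left out. Like that of *Homer1*, this call did not pass with the methods' t-test. All its values but 4.57 lay below the lower quartile of their arrays, which was 4.05 to 4.11. *Pde4d* differed by 0.03 with the brighter probe set. All 6 probe sets of *Homer1* lay above zero, at 0.12 to 0.47, as did all 6 of *Itpr2*, at 0.07 to 0.49.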

How the data were processed

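RNA of 4 hearts, 2 per genotype, was hybridised to 1 array each. The deposited values are log2 signals per probe set, which the authors background-corrected, normalized between arrays and summarised by RMA in oligo, per the submitters' processing notes (versions not given), after AGCC software, per the methods. The file holds 45101 probe sets with no detection calls; 64 controls were left out and 45037 tested without further filter. The test was limma's (version 3.58.1, under R 4.3.3), two-sided, by lmFit and eBayes with genotype as sole term, with Benjamini-Hochberg adjustment over all 45037. The threshold (1.3-fold, unadjusted p under 0.05) is that of the methods, which used an unmoderated test (the methods' t-test), and 95% intervals come from the limma fit. The methods also took in selected genes whose difference was borne out by quantitative RT-PCR, a route not used here. Precision is limited by the number of arrays, which leaves 2 residual degrees of freedom.

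Gene symbols are those of the array platform's annotation, and only probe sets with 1 symbol were used. Members and lists were chosen with earlier results of these data known, and the E-box and TGACTCA were added to the motif search after seeing the data. Values on every array are given for members past the threshold, the 6 isoform pairs, *Pln*, *Sln* and members whose replicates differ by over 2-fold; other members with a remark on their probe sets were named after their values were seen. The scripts were tested on simulated data. Alternatives were the methods' t-test, a replicate block, a trended prior, a filter on dim probe sets, 3 normalizations, specific probe sets, gene medians and leaving out each array. Figures were drawn with matplotlib 3.10.9.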

Additional observations from a re-analysis of the deposited data

How the results depend on the processing

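Under quantile, median and cyclic loess normalization, a trended prior and a replicate block, the same 6 member probe sets passed, and with a replicate block 683 probe sets of the array did. Replicate numbers were not taken to pair the arrays: deviations of same-numbered arrays correlated at 0.0281 over all probe sets and 0.108 over those of members, with only 2 pairs, and the block changed no call among the members. Without the 40% dimmest probe sets 5 passed (*Cacna1a* was left out), and with specific probe sets only 5 passed (*Cacnb1* was left out). With each gene as the median of its probe sets, 1 member passed, *Casq1*, and 210 of all genes. With the methods' t-test 200 of all probe sets passed. Leaving out an array gave 7 to 11 members and 739 to 3452 of all probe sets, the highest without Jun f/f replicate 2. Small differences changed sign when single arrays were left out: *Casq2* ranged from -0.0592 to 0.142, *Jph1* from -0.318 to 0.117, *Jph2* from -0.143 to 0.0353 and *Atp2a1* from -0.0859 to 0.0208, and the changes of *Atp2a1* minus *Atp2a2* from -0.0798 to 0.0249, of *Jph1* minus *Jph2* from -0.315 to 0.221 and of *Ryr1* minus *Ryr2* from -0.00783 to 0.118. *Atp2a1* minus *Atp2a2* was 0.0170 with cyclic loess and 0.11 with gene medians, where *Jph1* minus *Jph2* was 0.0135. The causes were not tested. With 2 hearts per genotype, 0 member probe sets passed after Benjamini-Hochberg adjustment in limma, whatever the size of the difference. The smallest difference that can be told from the spread between hearts was not worked out.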
